A study of Mus musculus with 6 samples.

Results

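The proteasome genes described here were the 50 of 32285 genes in the deposited matrices whose symbol starts with Psm, a letter from a to g and a digit. The rule reads the symbol alone and uses no measured value. The name takes in 5 immunoproteasome genes (Psmb8, Psmb9, Psmb10, Psme1 and Psme2), the 3 constitutive catalytic genes Psmb5, Psmb6 and Psmb7, 7 alpha-ring genes, 4 other beta-ring genes, 6 ATPases and 11 non-ATPases of the regulatory particle, 7 assembly chaperones and 3 other regulators. It also takes in 2 tissue-restricted subunits (Psma8 and Psmb11), Psme2b, a near-identical copy of Psme2 whose counts are uncertain for that reason, and Psmc3ip, a recombination factor that is not a proteasome subunit. Sem1, Pomp and Adrm1, which belong to the proteasome but carry other names, were followed as partners and not as members.

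The cells came from male Line 61 mice, in which human α-Synuclein (α-Syn) is expressed in neurons from the Thy1 promoter, so every group carried the transgene. The mice were injected in both striata at 12 to 15 weeks of age with PBS, α-Syn monomer (Monomer) or α-Syn pre-formed fibrils (PFF). PFF mice were then given vehicle (PFF + VH) or 25 mg/kg of the JAK1/2 inhibitor AZD1480 (PFF + AZD1480) by daily gavage for 4 weeks. At 6 weeks after injection, CD45+ cells were sorted from ventral midbrains, 3 to 5 of which were pooled per sample, and sequenced as 1 droplet single-cell library per condition. Because each condition is 1 library, treatment and library cannot be told apart. Only the PFF libraries were analysed by hashtag, the antibody tag added to a sample before samples are combined, with 4 hashtags in PFF + VH and 5 in PFF + AZD1480. Each hashtag was taken as 1 sample. The study's methods describe separately processed biological replicates, as many in each PFF group as there are hashtags, but no label ties a hashtag to a replicate, so p-values are taken to measure only the spread between hashtag samples.

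The proteasome is the main protease for ubiquitin-tagged proteins in the cytosol and nucleus. Its barrel-shaped core holds 3 kinds of catalytic subunit inside outer alpha rings, and a regulatory particle of ATPases and non-ATPases recognises, unfolds and feeds substrates into it. In the immunoproteasome, Psmb8 replaces Psmb5, Psmb9 replaces Psmb6 and Psmb10 replaces Psmb7. Psme1 and Psme2 form an alternative cap, and the peptides made by this form feed class I antigen presentation. Interferon acting through JAK kinases is the classical inducer of the immunoproteasome genes, and myeloid cells and lymphocytes express them without stimulation.

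The PFF + VH library stood apart from the others. It held 34828 barcodes against 13813 to 15683, and its microglia had a median of 2491 UMIs against 6891 to 7299, although the summed UMIs of all genes were similar in the 4 libraries (99658216 to 116440449). Microglia (MG), set by UMIs of marker genes that hold no proteasome gene, were 88.2% to 90.9% of the cells kept. Their P2ry12, a defining MG marker, lay between 1572 and 1937 CPM (UMIs scaled to a total of 1000000) in the hashtag samples, and the sorted population also held border macrophages, T, NK and B cells, neutrophils, monocytes and dendritic cells, each with all of its markers detected. Between any pair of libraries, 51 to 163 barcodes were shared, at most 1.05% of the smaller library.

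Psmb9 and Psmb8 lie in the class II region of the major histocompatibility complex on either side of the peptide transporter gene Tap1 (chr17:34187553-34197225, plus strand), at chr17:34181987-34187764 on the minus strand and chr17:34197721-34201454 on the plus strand (GRCm38). Psme1 (chr14:55578123-55581529, plus strand) and Psme2 (chr14:55587441-55591113, minus strand) lie close together. Psmb10 lies at chr8:105935735-105938444 on the minus strand. Of the constitutive genes, Psmb5 lies on the same chromosome as Psme1 and Psme2, at chr14:54614119-54618022 (minus strand). Psmb6, at chr11:70525367-70527858 (plus strand), and Psmb7, at chr2:38588036-38644087 (minus strand), lie on other chromosomes.

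Promoter windows of RefSeq (GRCm38.p6, 250 bases before to 50 after the annotated start) were found for 42 of the 50 members and were searched on both strands for 3 motifs of 9 letters. GAAANNGAA, the core of the interferon-stimulated response element, was in 7 of the 42, while 9.76% of all gene symbols with a promoter hold it. TTCNNNGAA, the STAT dimer element, was in 3 (9.55% of all symbols), and TGACNNNGC, the antioxidant response element core through which Nfe2l factors act, was in 6 (13.99%). GAAANNGAA was in 1 of the 5 immunoproteasome promoters (Psme1), in 2 of 2 promoters of other beta-ring genes and 2 of 6 of assembly chaperones, and in 0 of 7 of the alpha ring. TTCNNNGAA was in 1 of the 5 (Psmb8), while TGACNNNGC was in both constitutive catalytic promoters that were found, Psmb5 and Psmb6. The stretches below run from 150 bases before to 30 after the start, with the match in capitals, and are shown to set the interferon-type and antioxidant-type matches side by side. The match begins 97 bases before the start in Psmb8 (chr17:34198045-34198224, plus strand), at base 11 after it in Psme1 (chr14:55578344-55578523, plus strand, where the motif is read on the opposite strand) and 47 bases before it in Psmb5 (chr14:54617966-54618145, minus strand). The Psmb8 and Psme1 stretches lie inside the gene spans given above. The annotated start used for them is therefore downstream of the first base of those spans.
Psmb8: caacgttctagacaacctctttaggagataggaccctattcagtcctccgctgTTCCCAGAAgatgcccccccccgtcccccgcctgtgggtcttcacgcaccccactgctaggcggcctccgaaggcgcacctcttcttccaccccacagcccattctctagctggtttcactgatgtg
Psme1: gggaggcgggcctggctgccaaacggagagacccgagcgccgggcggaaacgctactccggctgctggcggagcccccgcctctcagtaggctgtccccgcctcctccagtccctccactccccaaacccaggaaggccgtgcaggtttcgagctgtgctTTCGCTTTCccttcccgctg
Psmb5: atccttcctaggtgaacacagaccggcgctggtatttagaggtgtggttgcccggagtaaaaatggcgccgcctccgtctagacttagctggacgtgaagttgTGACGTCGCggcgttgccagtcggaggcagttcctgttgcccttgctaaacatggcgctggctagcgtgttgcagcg
A match is a description of these letters and not evidence of binding, and no match says nothing of the factor.

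In MG, the immunoproteasome genes were as abundant as the constitutive core. The method counts 1 UMI per captured 3′ end, so values do not scale with transcript length. Over all MG of the 4 libraries, Psme1 stood at 154.5 CPM and was the highest of all members, Psmb8 stood at 142.9 CPM, and Psmb9 was the lowest of the 5 immunoproteasome genes at 58.0 CPM. The constitutive catalytic genes ranged from 66.9 CPM (Psmb7) to 87.1 CPM (Psmb6). The alpha ring ranged from 63.2 CPM (Psma5) to 126 CPM (Psma7) and the other beta-ring genes from 85.6 CPM (Psmb4) to 128.2 CPM (Psmb1). ATPases lay lower, from 36.9 CPM (Psmc1) to 76.4 CPM (Psmc3), as did non-ATPases, from 32.9 CPM (Psmd3) to 80.7 CPM (Psmd4, a ubiquitin receptor). Apart from the tissue-restricted subunits, each assembly chaperone lay below every core and regulatory-particle subunit, from 12.02 CPM (Psmg1) to 22.8 CPM (Psmd9). Among the other regulators, Psme4, a nuclear activator, stood at 133.5 CPM, far above Psmf1, a proteasome inhibitor, at 13.2 CPM. The testis subunit Psma8 stood at 4.77 CPM, Psmc3ip at 2.63 CPM and the thymus subunit Psmb11 at 0.046 CPM, which is 17 UMIs in all MG.

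The libraries first show how MG compared without and with fibrils and inhibitor. Values follow in the order PBS, Monomer, PFF + VH, PFF + AZD1480. Psme1 stood at 137.2, 140.7, 197.7 and 137.1 CPM. Psme2 followed the same pattern, at 80.1, 79.4, 101.1 and 75.4 CPM, and Psmb8 stood at 133.5, 142.7, 165.9 and 125.6 CPM. These 3 genes were thus highest in PFF + VH, while PFF + AZD1480 lay at or below both unseeded libraries. Psmb9 had another order, at 57.8, 64.3, 64.0 and 43.3 CPM, as did Psmb10, at 82.0, 80.9, 81.2 and 69.1 CPM. For Psmb9 and Psmb10, PFF + VH was level with Monomer and PFF + AZD1480 lay below all other libraries. Psmb7, which Psmb10 replaces, stayed between 65.1 and 69.8 CPM in all 4 libraries.

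With 1 library per condition these differences have no replicate check, and intervals cover counting error only. PFF + VH over Monomer, the log2 ratio was 0.49 for Psme1 (0.46 to 0.52, exact 95% interval), 0.35 for Psme2 (0.31 to 0.39), 0.22 for Psmb8 (0.18 to 0.25), 0.01 for Psmb10 (-0.04 to 0.05) and -0.01 for Psmb9 (-0.06 to 0.05). None of the 41 members with a mean of at least 20 CPM passed a log2 ratio of 0.5 in either direction, a size that 3.03% of all such genes passed upward and 0.714% downward. Psme1 was the member nearest to it among the immunoproteasome genes. The PFF + VH value includes 10076 MG without a hashtag call, in which Psme1 stood at 176.3 CPM, against 202.1 CPM in those with 1 hashtag. The ratio without them was not taken, so the count past the size holds for these library values only. Against Monomer, PFF + AZD1480 had 0 of 39 members past that size upward (2.62% of all genes) and 1 downward (1.01% of all genes), which was Psmb9 with -0.57 (-0.63 to -0.51). Monomer against PBS had 0 of 40 members past it (0.110% of all genes upward and 0.313% downward). The median log2 ratio of PFF + VH over Monomer was 0.22 for the immunoproteasome genes, 0.09 for the other members and -0.09 for all genes.

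In the comparison of PFF + AZD1480 with PFF + VH in MG, hashtags served as replicates. All hashtags of a treatment came from 1 library, so the inhibitor and the library cannot be told apart here. All 5 immunoproteasome genes were lower with AZD1480. Psme1 stood at 209.0, 206.8, 196.4 and 198.0 CPM in the 4 PFF + VH hashtags and at 140.5, 146.6, 130.7, 132.6 and 130.7 CPM in the 5 PFF + AZD1480 hashtags. Its log2 difference was -0.62 ± 0.05 (SE), or 0.650 times the vehicle level, with an adjusted p of 1.778e-05 by edgeR's quasi-likelihood test over all genes. The groups did not overlap. Psmb9 stood at 65.4, 64.9, 62.5 and 61.2 CPM against 41.0, 48.3, 41.6, 42.5 and 40.2 CPM, and its log2 difference was -0.62 ± 0.06 (edgeR adjusted p = 4.313e-05). Psme2 stood at 107.7, 102.9, 104.4 and 101.2 CPM against 74.1, 80.8, 72.5, 75.7 and 77.5 CPM, a log2 difference of -0.50 ± 0.04 (edgeR adjusted p = 2.446e-05). Psmb8, the chymotrypsin-like subunit, stood at 161.4, 162.0, 174.8 and 168.0 CPM against 124.0, 129.9, 125.9, 126.2 and 116.8 CPM, a log2 difference of -0.47 ± 0.05 (edgeR adjusted p = 7.353e-05). Psmb10 fell least, from 76.3, 82.0, 86.5 and 80.5 CPM to 69.6, 70.2, 67.0, 67.6 and 73.8 CPM, with a log2 difference of -0.28 ± 0.05 (edgeR adjusted p = 0.002523). In each of the 5 genes, every PFF + AZD1480 hashtag lay below every PFF + VH hashtag, which was so for 9.80% of the 13683 genes tested.

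**Figure D1:**
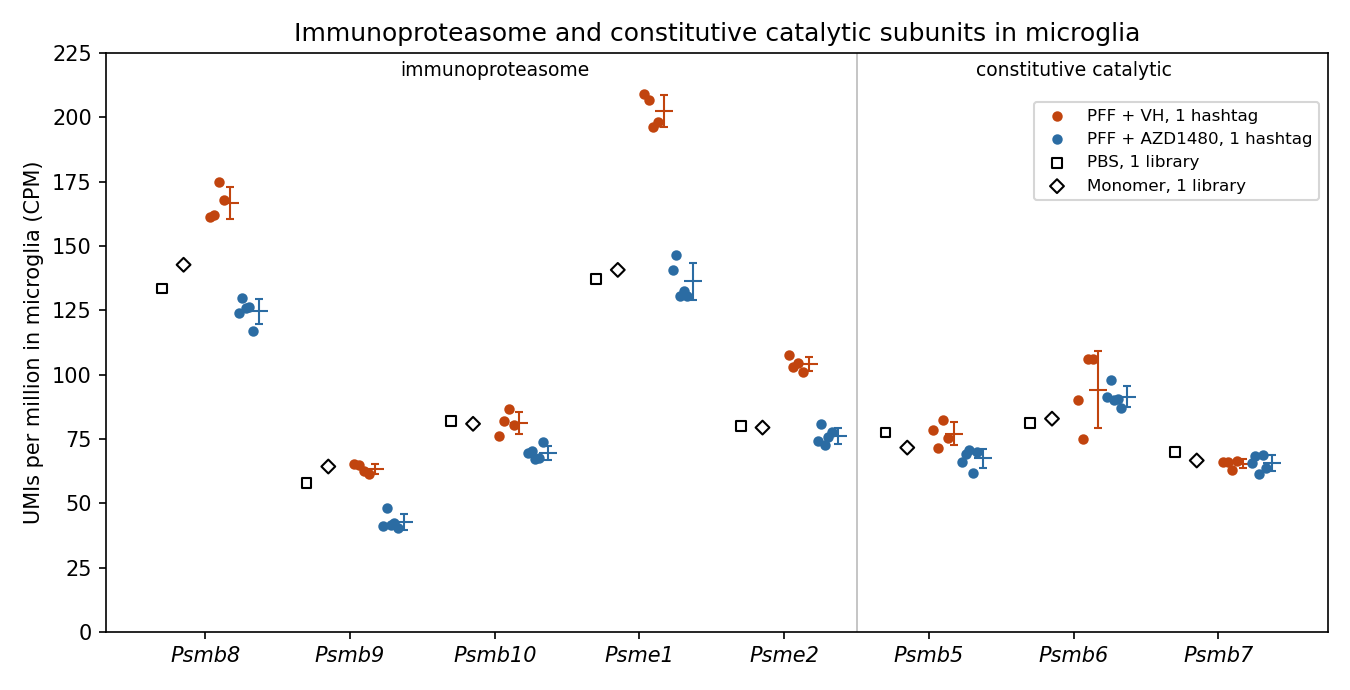
Level in microglia (CPM, y axis) of the 5 immunoproteasome and 3 constitutive catalytic genes. Filled points are single hashtag samples with the mean and SD beside them, and open symbols are the PBS and Monomer libraries. All 5 immunoproteasome genes separate PFF + AZD1480 from PFF + VH, while Psmb6 and Psmb7 overlap.

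Of the constitutive partners, only Psmb5 passed the test. Psmb5 stood at 78.6, 71.7, 82.3 and 75.4 CPM in PFF + VH and 66.0, 69.0, 70.6, 61.8 and 69.9 CPM in PFF + AZD1480. It was lower by 0.24 on the log2 scale (edgeR adjusted p = 0.008256), again with no overlap. Psmb6 stood at 90.0, 74.8, 106.0 and 105.9 CPM against 91.5, 98.0, 90.1, 90.5 and 87.1 CPM, and its log2 difference of -0.09 had an interval from -0.28 to 0.10 (edgeR adjusted p = 0.4818). The PFF + VH hashtags spread widely for this gene and enclosed those of PFF + AZD1480. Psmb7 stood at 66.2, 66.2, 63.0 and 66.3 CPM against 65.6, 68.4, 61.4, 69.0 and 63.9 CPM, with a log2 difference of -0.04 (interval -0.14 to 0.05, edgeR adjusted p = 0.5129). Psmb10 thus fell where the gene it replaces did not pass the test. Whether the log2 differences of 2 genes differ from each other was not tested.

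Over all members tested in MG, 28 of 49 were lower with AZD1480 and 0 were higher, against 14.5% lower and 12.2% higher among all 13683 genes. Psmb11 was too low to be tested. Without the immunoproteasome genes, 23 of 44 were lower and the median log2 difference was -0.18, against -0.00 over all genes and -0.50 for the immunoproteasome genes. Every PFF + AZD1480 hashtag lay below every PFF + VH hashtag for 16 of these 44 (9.80% of all genes) and above for 2 (13.9% of all genes). By role, 1 of the 3 constitutive catalytic genes was lower, as given above. In the alpha ring 6 of 7 genes were lower, led by Psma7 (-0.39 log2) and Psma1 (-0.28 log2). All 4 other beta-ring genes were lower, led by Psmb3 (-0.35 log2) and Psmb1 (-0.25 log2). In the regulatory particle, 4 of 6 ATPases were lower, with Psmc1 at -0.25 and Psmc5 at -0.22 log2, and 5 of 11 non-ATPases, with Psmd4 at -0.22 and Psmd8 at -0.19 log2. Of the 7 assembly chaperones 3 were lower, namely Psmg4 (-0.31 log2), Psmg1 (-0.30 log2) and Psmd10 (-0.28 log2). None of the 3 other regulators passed the test, and Psme4, the only one above 0, had a log2 difference of 0.13 (edgeR adjusted p = 0.05349). With RLE scaling Psme4 was called higher, and 22 members beside the immunoproteasome genes were lower. Psme2b, Psma8 and Psmc3ip did not pass either.

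**Figure D2:**
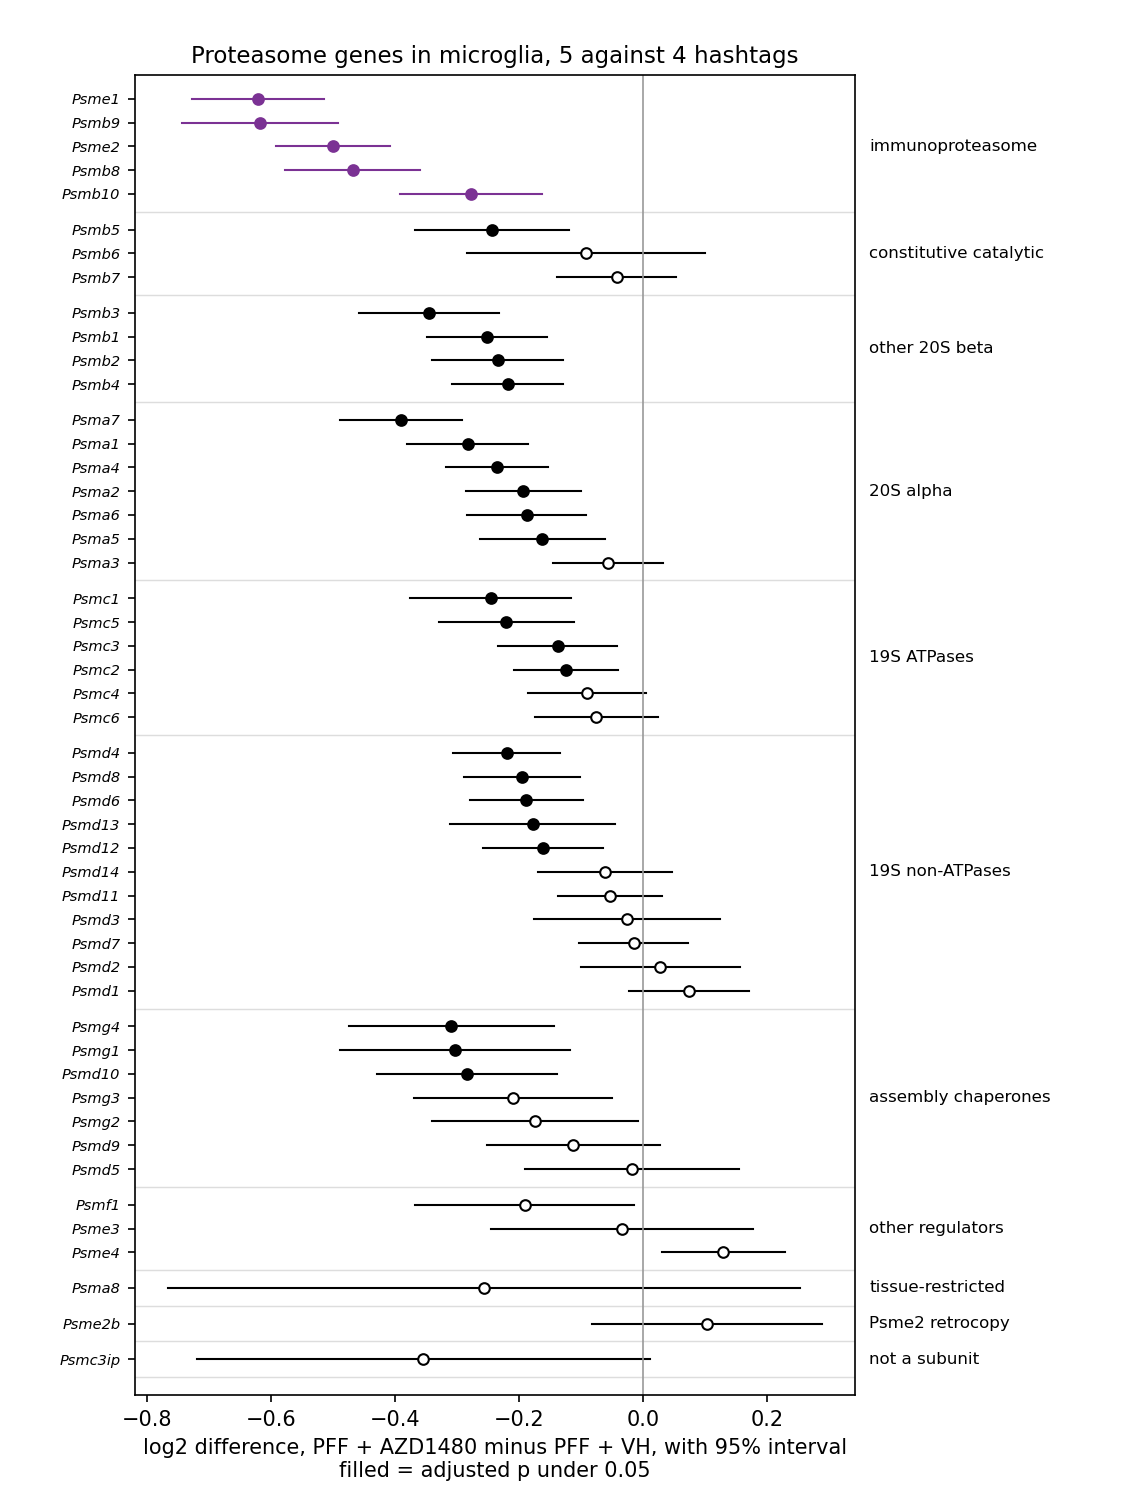
Log2 difference in microglia, PFF + AZD1480 minus PFF + VH (x axis), of the 49 members tested, with 95% intervals and grouped by role. Filled points have an adjusted p under 0.05. The immunoproteasome genes lie between -0.28 and -0.62, and no filled point lies above 0.

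Genes that work with the proteasome were read against the same shares of all genes, 14.5% lower and 12.2% higher. Of 12 genes of class I peptide loading, 5 were lower with AZD1480 and 0 were higher. They were Nlrc5, the transactivator of class I genes (-0.85 log2), H2-K1 (-0.60 log2), the peptide transporter Tap1 (-0.57 log2), B2m (-0.48 log2) and H2-D1 (-0.47 log2). Of 11 proteasome partners with other names, 0 were higher and 3 were lower, namely Sem1, a regulatory particle subunit (-0.34 log2), Pomp, a core maturation factor (-0.28 log2), and the ubiquitin gene Ubb (-0.21 log2). Ddi2, a protease that activates Nfe2l1, was higher (0.19 log2).

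The 5 falls were called in all 20 alternative analyses, with log2 differences from -0.65 to -0.60 for Psme1 and from -0.32 to -0.23 for Psmb10. Depth moved with treatment, since single-hashtag MG had a median of 3000 UMIs in PFF + VH and 6907 UMIs in PFF + AZD1480. In MG with at least 3000 UMIs, the log2 differences were -0.62 for Psme1, -0.62 for Psmb9, -0.49 for Psme2, -0.46 for Psmb8 and -0.26 for Psmb10, and all passed the test. In PFF + VH, the 10076 MG without a hashtag call, which enter no test, had a median of 1490 UMIs and lay lower (Psme1 176.3 CPM, Psmb8 144.9 CPM) than the 16647 with 1 hashtag (202.1 and 166.7 CPM).

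MG were next split into states by interferon-response genes, disease-associated genes or cycling genes, none of them a proteasome gene, and each state was compared with MG of no state within the same hashtag samples. The interferon state was 1.63% to 2.76% of MG in the PFF + VH hashtags and 0.381% to 0.977% in the PFF + AZD1480 hashtags, so the ranges did not overlap. In it, all 5 immunoproteasome genes were higher (2.90% of 12687 genes were higher and 2.55% lower) and 0 of the 44 other members tested were called. Psmb9 stood at 102.8, 107.2, 110.0 and 99.0 CPM in the interferon state of PFF + VH against 63.0, 62.2, 61.9 and 59.2 CPM in MG of no state. In PFF + AZD1480 it stood at 81.3, 69.0, 79.0 and 42.6 CPM in hashtags 1, 2, 4 and 5 against 40.3, 46.9, 40.2 and 40.6 CPM. The interferon sums of these hashtags were small, with 14, 13, 26 and 11 cells. Psmb9 was higher in 8 of 8 hashtags, with a log2 difference of 0.77 ± 0.11 (edgeR adjusted p = 7.841e-07). Psme1 (0.71 log2), Psmb10 (0.67 log2), Psme2 (0.67 log2) and Psmb8 (0.54 log2) were higher as well, in 8, 7, 8 and 8 of 8 hashtags. With RLE scaling the genes called higher and lower went from 368 and 323 to 514 and 133, and all 5 immunoproteasome genes were called again. Psmb5, Psmb6 and Psmb7 had log2 differences of -0.06, 0.20 and 0.02. The count of 0 among the other members is from edgeR, with 4 of 44 at an unadjusted p under 0.05, and DESeq2 also called 0.

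Of the class I peptide loading genes, 6 of 12 were higher in the interferon state, among them Nlrc5 (2.37 log2), Tap1 (1.40 log2) and H2-K1 (0.72 log2). The regulator Irf1 was higher too (0.61 log2), while 0 of 11 proteasome partners were called by edgeR. Cells in this state held more UMIs, with a mean of 4760 per cell against 2906 in PFF + VH, and the part of this in the result was not tested. The PBS and Monomer libraries, which entered no test here, had the same order, with Psmb9 at 112.9 and 118.0 CPM and Psmb10 at 120.7 and 135.1 CPM in the interferon state.

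The treatments were also compared in MG of no state alone, a comparison added after the data were seen. There, the log2 differences between PFF + AZD1480 and PFF + VH were -0.62 for Psme1, -0.62 for Psmb9, -0.49 for Psme2, -0.47 for Psmb8 and -0.25 for Psmb10, and 20 other members were lower. Within the interferon state, 0 of 49 members had a difference between states that itself differed between treatments (0.331% of 12369 genes did). DESeq2 gave only 9 of the 49 members an adjusted p, 3 of them immunoproteasome genes, and called 0 of these 9. At an unadjusted p under 0.05 there were 5 members by edgeR, 2 of them immunoproteasome genes. These 2 were Psme1 and Psme2, whose interferon-state differences were larger in PFF + AZD1480. The excess was 0.44 log2 for Psme1 (interval 0.08 to 0.80, edgeR adjusted p = 0.4401). It was 0.52 log2 for Psme2 (interval 0.04 to 1.01, edgeR adjusted p = 0.5399). Psmb8, Psmb9 and Psmb10 had values of -0.02, -0.11 and -0.36 log2 and were not called. Over 8 alternatives Psmb8 ran from -0.02 to 0.13 and Psmb9 from -0.11 to 0.24, so both changed sign. Psmb10 stayed negative, from -0.36 to -0.23. Whether the 5 genes fell with AZD1480 inside the interferon state alone was not tested.

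In the disease-associated state, marked by Spp1, Lpl, Cst7 and similar genes, the immunoproteasome genes did not move as a block. Psme1, Psme2 and Psmb8 were higher, by 0.28, 0.28 and 0.22 on the log2 scale (edgeR adjusted p = 8.082e-05, 0.0002028 and 0.0001334), in 9, 8 and 9 of 9 hashtags. Psmb9 (0.01 log2) and Psmb10 (-0.08 log2) were not called, and Psmb10 lay lower in 9 of 9 hashtags. The member with the largest difference was constitutive. Psmb6 stood at 102.1, 77.6, 140.4 and 129.3 CPM in the disease-associated state of PFF + VH against 84.0, 72.0, 91.0 and 96.6 CPM in MG of no state. In PFF + AZD1480 it stood at 113.8, 129.8, 109.1, 121.6 and 116.9 CPM against 84.2, 85.4, 83.3, 81.0 and 80.7 CPM. It was higher in 9 of 9 hashtags, by 0.51 ± 0.05 log2 (edgeR adjusted p = 2.166e-12). Cells in the disease-associated state also held more UMIs than MG of no state. Their mean was 5045 per cell against 2906 in PFF + VH and 8345 against 6469 in PFF + AZD1480. The part of this depth in the results for the state was not tested.

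Apart from the immunoproteasome genes, 14 of 44 members were higher and 1 was lower in this state, against 17.6% higher and 18.7% lower among all genes, and 20 were higher with RLE scaling. Beside Psmb6, the highest were the chaperones Psmg4 (0.39 log2) and Psmd10 (0.28 log2) and the non-ATPase Psmd8 (0.26 log2), and the lower member was Psme4 (-0.16 log2). H2-D1 (0.74 log2), H2-K1 (0.63 log2) and B2m (0.58 log2) led 6 of 12 peptide loading genes that were higher. None of the 49 members had a state difference that differed between the treatments (0.121% of all genes did), with 0 at an unadjusted p under 0.05 by edgeR, while DESeq2 gave none of them an adjusted p.

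In the cycling state, which is defined by mitosis genes such as Mki67 and Top2a, Psmb9 alone among the immunoproteasome genes was called, at 118.1, 155.4, 172.1 and 76.7 CPM in PFF + VH and 124.7 and 91.0 CPM in the 2 PFF + AZD1480 hashtags with enough cells. It was higher than in MG of no state in 6 of 6 hashtags, by 0.94 ± 0.18 log2 (edgeR adjusted p = 3.219e-05). Of the other 44 members, 12 were higher and 1 lower, against 10.1% higher and 9.22% lower among all genes. Psmc3ip, the recombination factor, was highest at 2.53 log2, followed by the chaperone Psmg2 (1.15 log2), Psmc1 (0.81 log2), Psma1 (0.78 log2) and Psmb6 (0.72 log2). The Psmc3ip value rests on few molecules, since all cycling cells held 16 of its UMIs in the PFF + VH library and 5 in that of PFF + AZD1480. Of the ATPases 4 of 6 were higher, and Psme4 was the lower member (-0.85 log2). Cycling sums were small, from 11 to 64 cells per hashtag. In PFF + VH these cells held a mean of 3879 UMIs against 2906 in MG of no state, and its part was not tested. With RLE scaling the genes called higher and lower went from 1286 and 1170 to 1630 and 636, and among the members Psmb8 was called as well, with 15 others higher.

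**Figure D3:**
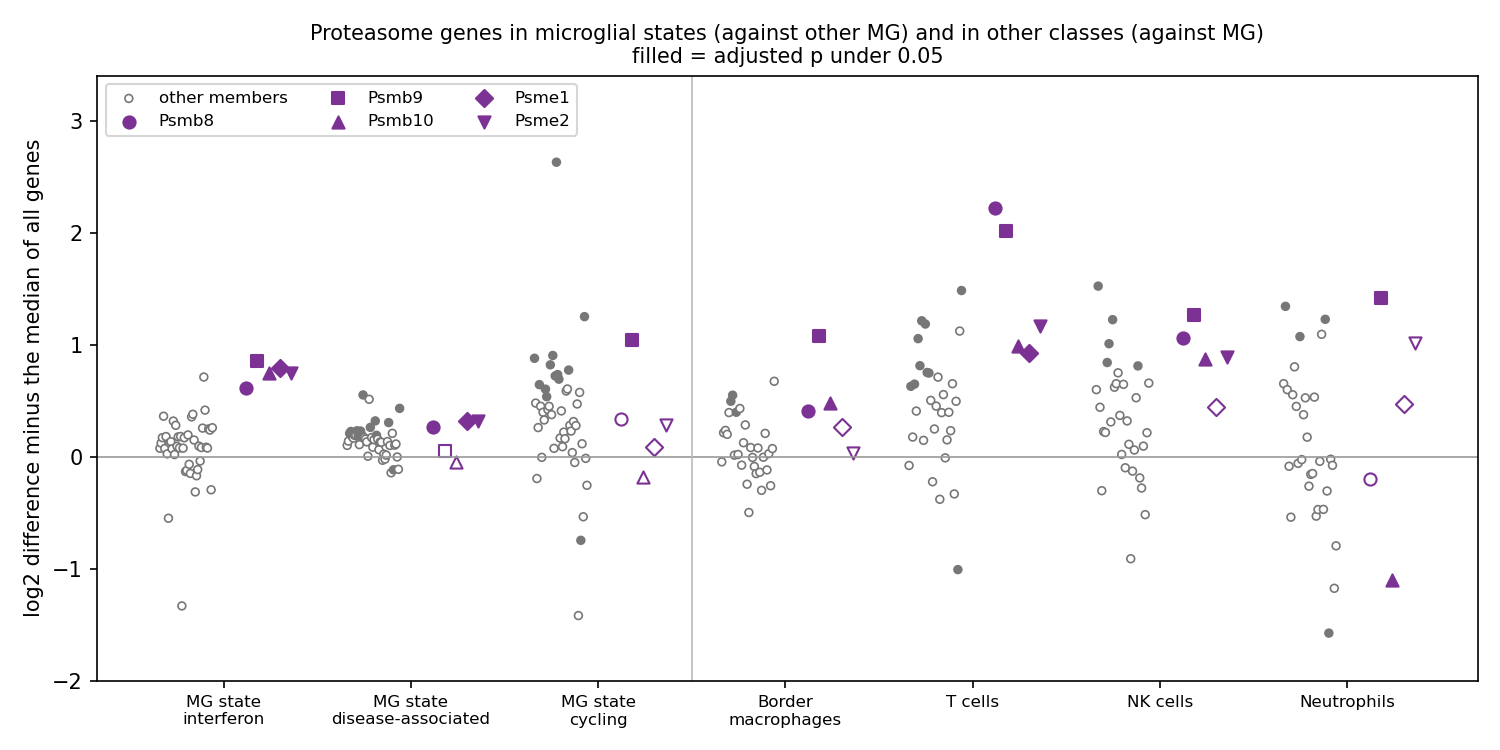
Log2 difference minus the median over all genes (y axis) of each member, for the 3 microglial states against microglia of no state and for 4 other classes against microglia. Filled symbols have an adjusted p under 0.05. In the interferon state the 5 immunoproteasome genes are filled and 0 of 44 other members are, and in T cells Psmb8 and Psmb9 lie highest.

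The other classes were compared with MG of the same hashtag samples, over 4961 genes. With 3 genes that overlap ribosomal RNA left out of the totals, the median log2 difference of all genes moved from 0.06 to -0.22 in T cells, from 0.04 to -0.21 in NK cells and from 0.05 to -0.08 in border macrophages. In neutrophils it was already -0.37 and moved to -0.51. Values are therefore given relative to that median, while each adjusted p belongs to the value before the median is taken off. The genes called higher and lower moved with it, from 1452 and 1197 to 1136 and 1471 in T cells, from 942 and 877 to 731 and 1100 in NK cells from 995 and 825 to 758 and 1002 in border macrophages and from 986 and 1212 to 900 and 1489 in neutrophils. In T cells, all 5 immunoproteasome genes were higher than in MG. Psmb8 stood at 697.7, 588.1 and 679.0 CPM in the T cells of 3 PFF + VH hashtags and 686.1, 577.2 and 643.6 CPM in those of 3 PFF + AZD1480 hashtags, above every MG value. It was higher than in MG in 6 of 6 hashtags, by 2.22 log2 relative to the median of all genes (edgeR adjusted p = 1.212e-13). Psmb9 (2.01 log2), Psme2 (1.17 log2), Psmb10 (0.98 log2) and Psme1 (0.92 log2) were higher as well, each in 6 of 6 hashtags. Psmb8 and Psmb9 were called in all 18 alternatives, Psme1 and Psme2 in 17 and Psmb10 in 16. Before the median is taken off, the 3 that were not called with no filter on low counts went to 0.40 (Psme1), 0.64 (Psme2) and 0.47 (Psmb10), and Psmb10, at 0.60, was also not called without PFF + VH hashtag 4. Psmb5 was called higher too (0.75 log2 relative to the median, edgeR adjusted p = 0.03193), but in only 3 of 18 alternatives. Psmb6 (0.50 log2 relative to the median, edgeR adjusted p = 0.08066) was not called. With Psmb5, 9 of the 30 other members tested were higher and 1 was lower. Among all genes 29.3% were higher and 24.1% lower, so the count of higher members lay near the share of all genes. With the ribosomal RNA genes left out, 5 of these 30 were higher and 1 was lower. With those genes in the totals, the higher members were led by Psmg4 (1.55 log2 before the median is taken off), Psmb1 (1.28) and Psmb3 (1.25). The lower one was again Psme4 (-0.95).

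Border macrophages, the nearest relatives of MG in the sort, differed less. Psmb9 stood at 78.8, 125.3, 116.6 and 123.9 CPM in PFF + VH and 85.4, 122.3, 130.6 and 71.1 CPM in PFF + AZD1480, higher than in MG in 8 of 8 hashtags and by 1.08 log2 relative to the median (edgeR adjusted p = 4.511e-06). Psmb10 (0.48 log2, edgeR adjusted p = 0.03075) and Psmb8 (0.40 log2, edgeR adjusted p = 0.04556) were called as well, but Psmb8 held in 6 and Psmb10 in 7 of 19 alternatives, whereas Psmb9 held in all 19. Psme1 and Psme2 were not called, and Psmb5 (-0.08 log2) and Psmb6 (0.12 log2) lay near the median. Of the other 30 members 3 were higher, Psma7, Psma6 and Psmb2, and 0 lower, against 20.1% and 16.6% of all genes. With the ribosomal RNA genes left out, 1 was higher and 1 lower.

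NK cells were tested in the 4 PFF + VH hashtags only, with 11 to 21 cells each. Psmb9 (1.26 log2) and Psmb8 (1.06 log2) were higher than in MG in 4 of 4 hashtags, as were Psme2 (0.89 log2) and Psmb10 (0.87 log2), but the calls of Psme2 and Psmb10 held in only 6 and 3 of 17 alternatives. Psme1 (0.44 log2) and Psmb5 (0.65 log2) were not called. Of the same other members as were tested in T cells, 5 were higher, led by Psma2 (1.56 log2 before the median is taken off), and 0 lower. Both counts lay below the shares of all genes, 18.99% higher and 17.7% lower. With the ribosomal RNA genes left out, 3 were higher. In neutrophils, Psmb9 was higher by 1.41 log2 relative to the median (1.04 before it is taken off) in 5 of 5 hashtags (edgeR adjusted p = 0.007314), while Psmb10 was lower by 1.10 log2 in 5 of 5 (edgeR adjusted p = 0.009059). The Psmb10 value rests on few molecules, 3, 0 and 2 UMIs in PFF + VH and 1 and 2 UMIs in PFF + AZD1480. Psmb8 was not called there (-0.20 log2 relative to the median, edgeR adjusted p = 0.1424), although it lay lower than in MG in 5 of 5 hashtags and was called in 4 of 18 alternatives. Psmb9 was called in 15 and Psmb10 in 17 of the 18. Of the same other members 3 were higher and 1, Psmd7 (-1.95 log2 before the median is taken off), was lower. Both counts lay below the shares of all genes, 19.9% higher and 24.4% lower. With the ribosomal RNA genes left out, 1 was higher and 2 were lower. MG RNA was measured in all of these classes, with P2ry12 at 213 to 379 CPM in border macrophages, 96.6 to 249 CPM in T cells, 121 to 444 CPM in NK cells and 67.1 to 1017 CPM in neutrophils, and its part in these values was not tested.

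Classes with too few cells for a test are given by library, in the order PBS, Monomer, PFF + VH and PFF + AZD1480. Psmb8 in B cells stood at 336.2, 388.5, 367.4 and 249.1 CPM. In the 8 to 30 monocytes per library it stood at 895.9, 374.0, 418.6 and 374.3 CPM, and in the 6 to 17 dendritic cells per library at 551.4, 469.1, 261.4 and 466.6 CPM. All of these values were above the highest Psmb8 value of any MG hashtag sample, 174.8 CPM, but that of PFF + VH dendritic cells rests on 6 UMIs and its exact 95% Poisson interval, 95.9 to 569 CPM, takes in 174.8 CPM. In T cells, tested above by hashtag, Psmb8 stood at 510.0, 547.2, 680.4 and 585.9 CPM by library. The exact 95% Poisson interval of PFF + VH (572.4 to 803 CPM) did not overlap that of PBS (457.9 to 566.4 CPM). It did overlap that of Monomer (485.2 to 614.9 CPM). These intervals cover counting error only. Psmb10 and Psme1 in T cells were also highest in PFF + VH, but Psmb9 was lowest there, at 244.1, 219.3, 155.5 and 210.4 CPM by library. Psme2 in T cells ranged from 176.5 to 207.6 CPM. Monocytes of PBS held the highest Psmb9 of any class and library, 522.6 CPM (424.3 to 636.9, exact 95% Poisson interval).

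AZD1480 was also compared with VH outside MG. In border macrophages (8 hashtags) 0 of 26 members were called, against 0.0734% of 2724 genes. By edgeR 1 member had an unadjusted p under 0.05, and DESeq2 gave no member an adjusted p. The log2 differences were -0.39 for Psme1 (interval -0.90 to 0.11) and -0.07 for Psmb8 (interval -0.61 to 0.47), so a fall of the size seen in MG lay within both intervals. In T cells (6 hashtags) 0 of 7 members were called, against 0.00% of 694 genes, with 0 at an unadjusted p under 0.05 and 0 called by DESeq2. T, NK and B cells were also summed as lymphocytes, a grouping added after the data were seen. There, 0 of 24 members were called, against 2.79% of 2148 genes, and DESeq2 called 0 of the 18 it gave an adjusted p. By edgeR 1 member had an unadjusted p under 0.05. That 1 was Psmb10, at 109.5, 134.9, 210.5 and 215.8 CPM in PFF + VH and 86.4, 91.0 and 96.6 CPM in PFF + AZD1480, a log2 difference of -0.89 with an interval from -1.59 to -0.19 (edgeR adjusted p = 0.2057). Psmb8, at 391.1 to 558.4 CPM and 483.1 to 567.6 CPM, had a log2 difference of 0.18 (interval -0.29 to 0.65), and in T cells alone it was -0.03 (interval -0.56 to 0.50). The make-up of the lymphocyte sums differed between treatments, since T cells gave 34 of 46, 40 of 41 and 60 of 70 Psmb8 UMIs in PFF + AZD1480 but 32 of 58, 26 of 61 and 33 of 61 in PFF + VH hashtags 2 to 4, and its part in the result was not tested.

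Whether the AZD1480 difference in another class differed from that in MG was tested as an interaction. For border macrophages 0 of 42 members were called (0.367% of 7087 genes), with 4 at an unadjusted p under 0.05 by edgeR and 0 called by DESeq2. For T cells 0 of 42 were called (0.0847% of 7087 genes), with 3 at an unadjusted p under 0.05 by edgeR and 0 called by DESeq2. The largest interaction among the immunoproteasome genes was that of Psmb9 in T cells, 0.92 log2 with an interval from 0.07 to 1.77 (edgeR adjusted p = 0.713). Over all genes, these interactions called 26 genes for border macrophages and 6 for T cells.

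The share of Psmb8, Psmb9 and Psmb10 in the UMIs of the 6 catalytic genes puts these levels on 1 scale, without the library total. It is given as a description. In MG it was 54.5% in PBS (54.0% to 54.9%, exact 95% binomial interval) and 56.6% in Monomer. With fibrils it was 57.1% under vehicle and 51.4% under AZD1480 (50.9% to 51.9%). The hashtags ranged from 55.6% to 59.2% in PFF + VH and from 51.1% to 51.7% in PFF + AZD1480, without overlap. Within pairs, Psmb9 per Psmb6 went from 0.690 UMIs in PFF + VH to 0.469 in PFF + AZD1480, while Psmb8 per Psmb5 was 2.18 and 1.88 and Psmb10 per Psmb7 was 1.25 and 1.04. In the interferon state the share was 63.1% to 68.8% over the PFF + VH hashtags. It spread from 44.7% to 72.7% over those of PFF + AZD1480, which held only 11 to 26 such cells each. In the disease-associated state it was 51.3% to 57.5% with vehicle and 47.9% to 49.6% with AZD1480, the latter below every MG hashtag. In T cells it was 70.4% to 84.0% over both PFF libraries, above every MG hashtag, and in border macrophages 53.1% to 75.5%.

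**Figure D4:**
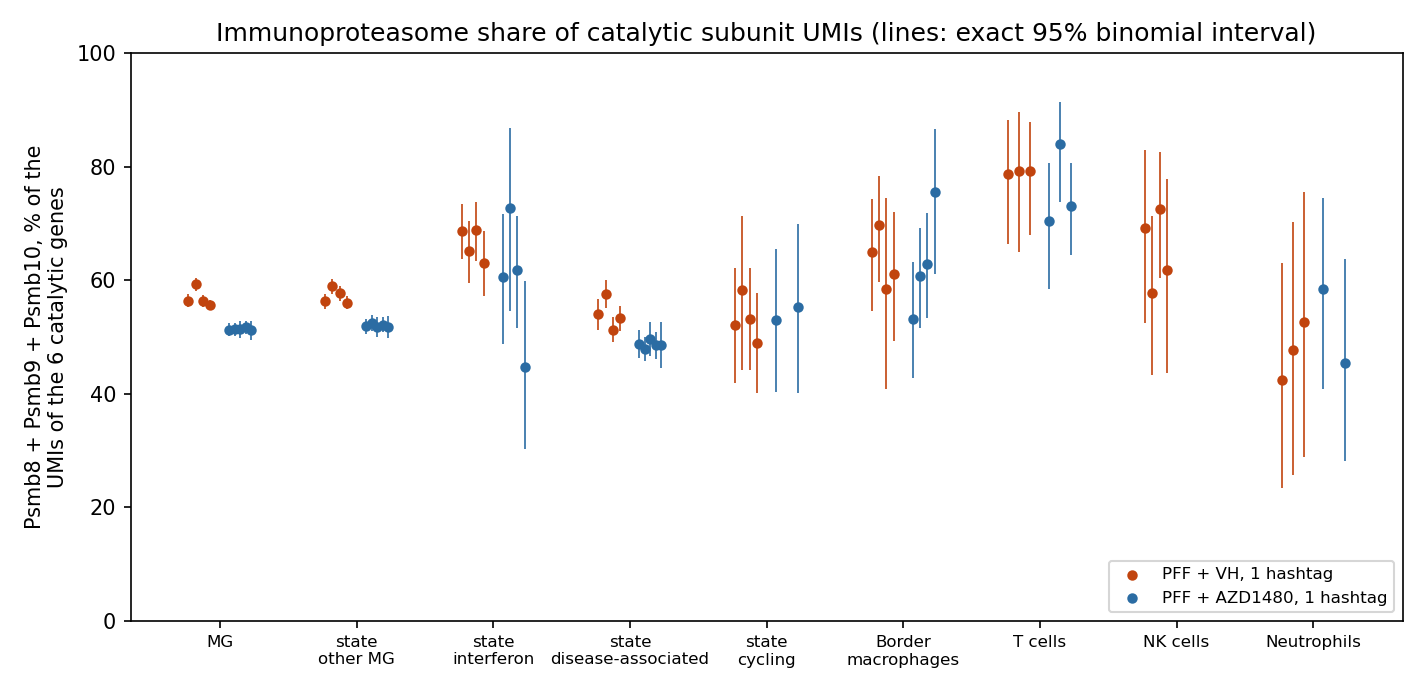
Share of Psmb8, Psmb9 and Psmb10 in the UMIs of the 6 catalytic genes (percent, y axis) by class and microglial state. Each point is 1 hashtag sample and each line its exact 95% binomial interval, which covers counting error only. Microglia of PFF + AZD1480 (51.1% to 51.7%) lie below those of PFF + VH (55.6% to 59.2%), and T cells run from 70.4% to 84.0%.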

How the data were processed

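As deposited, each library is a matrix of whole UMI counts for every gene and barcode, which the authors made from 10x Genomics 3′ libraries with Cell Ranger on mm10 (release 7.0.1 per the file headers, while the study's methods name another release), and whole-number hashtag counts for the PFF libraries. A barcode was kept if it had 500 to 15000 counts, 250 to 5000 genes and no more than 10% of its counts from mitochondrial genes. No doublet caller was run, and cells with more than 1 hashtag were left out of the hashtag tests. A cell was given a class with at least 3 UMIs of at least 2 markers and 2 times those of any other class, and an MG state with at least 3 UMIs of at least 2 state genes. Hashtags were called with HTODemux in Seurat 5.3.0. Counts were summed per hashtag and class (sums of at least 10 cells) and tested with edgeR 4.0.16 (quasi-likelihood test, TMM, filterByExpr), with the hashtag sample as a block in the comparisons of classes and states, and Benjamini-Hochberg adjustment over all genes tested at a threshold of 0.05. CPM is the summed UMI count scaled to a total of 1000000. Library values have exact Poisson or binomial 95% intervals and no test, and a ratio was set against a log2 size of 0.5 at a mean of at least 20 CPM.

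All 50 members were accounted for. Hashtag values of the 8 immunoproteasome and constitutive catalytic genes are given for AZD1480 against VH in MG. For the other comparisons only some of these 8 genes are given. For other roles the 2 called members with the largest change and the highest and lowest level are named. The rule for members uses gene symbols only, but the gene family and the lists were picked with earlier results of these data known. DESeq2 1.42.0, RLE scaling, no filter, other hashtag calls, 1000 counts per cell, stricter class and state rules, totals without 3 genes that overlap ribosomal RNA, libraries as blocks, hashtag numbers as blocks and leaving out each hashtag were tried as alternatives. In simulated sums with 200 genes changed by 2 times, edgeR recovered 84.5% for AZD1480 against VH in MG (13683 genes), 53.5% for the same comparison in border macrophages (2724 genes), 57.0% for the interferon state (12687 genes), 89.5% for the disease-associated state and 33.0% for the cycling state. MG of at least 3000 counts, MG of no state and lymphocytes as 1 sum were added after the data were seen. The authors tested single cells with a hurdle model, which was not used here because cells of 1 sample are not replicates. No hashtag counts were at hand for PBS and Monomer, so these libraries entered no hashtag test. One gene of the regulator list is not reported here.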

Additional observations from a re-analysis of the deposited data

Results flagged for a closer look

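Values of the 8 genes were looked at for a hashtag sample that stands far from the others of its group (Dixon's test, groups of 4 to 10), and 4 of 64 groups held one, where chance alone would give about 1 in 20. Psmb9 in MG of PFF + AZD1480 hashtag 2 stood at 48.28 CPM, above the other 4 hashtags of its group (40.2 to 42.45 CPM) and still below every PFF + VH hashtag. Psmb7 in MG of PFF + VH hashtag 3 stood at 63 CPM, against 66.18 to 66.34 CPM in the other 3. Psmb7 in the interferon state of PFF + AZD1480 hashtag 2 stood at 13.79 CPM, which is 1 UMI. Psmb6 in border macrophages of PFF + VH hashtag 4 stood at 175.6 CPM, or 17 UMIs, against 71.64 to 81.69 CPM in the other 3.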

How the results depend on the processing

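Of the alternative values of the main results, 395 kept their direction and side of the threshold, 37 were weaker, 45 stronger and 0 reversed. Of 1718 alternative values of the 8 single genes 135 were weaker, 53 stronger and 0 reversed, where reversed means the opposite sign with a call on either side. Values that passed no test did change sign, such as Psmb8 for AZD1480 in border macrophages (-0.30 to 0.09 log2). The 5 falls of the immunoproteasome genes in MG with AZD1480, and the rise of all 5 in the interferon state, held in all 20 alternatives of each comparison. For AZD1480, 2 of these, MG of at least 3000 counts and MG of no state, were chosen after seeing the data. In MG the hashtag numbers of both PFF libraries did not pair the samples, since the deviations of same-numbered hashtags correlated between -0.0245 and 0.0722 and 1 of 4 matched its own number best. With the number as a block, 5 immunoproteasome and 18 other members fell in MG, and AZD1480 against VH called 5 genes in border macrophages, 40 in T cells and 115 in lymphocytes, with 0 immunoproteasome genes lower in each.

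For AZD1480 against VH, border macrophages had 2 genes called, and 53 with no filter on low counts, 10 with DESeq2, 1 with each other hashtag call and the stricter class rule, and 2 to 7 when 1 hashtag was left out, highest without PFF + AZD1480 hashtag 4 or PFF + VH hashtag 2. T cells had 0, and 15 with no filter, 3 with hashtags called by 70% of hashtag UMIs and 0 to 9 with 1 hashtag left out, highest without PFF + VH hashtag 3. Lymphocytes had 60, and 146 with no filter, 95 with hashtags called by share, 9 with the stricter class rule and 35 to 58 with 1 hashtag left out, lowest without PFF + AZD1480 hashtag 4.

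Against MG, with no filter the genes called went from 1820 to 3082 in border macrophages, from 2649 to 4044 in T cells and from 2198 to 4066 in neutrophils. With the 4 libraries as blocks they were 2967, 4982 and 4233, and with 9 hashtags and 2 libraries as blocks 2908, 4389 and 4265, and 3696 in NK cells (1819 before). Immunoproteasome genes called higher in border macrophages fell from 3 to 1 with no filter, with 1000 counts per cell, with the stricter class rule and with the ribosomal RNA genes left out, and were 1 to 3 with 1 hashtag left out (1 without any single PFF + AZD1480 hashtag or PFF + VH hashtag 1 or 4). In T cells they fell from 5 to 2 with no filter. In NK cells they fell from 4 to 0 with no filter and to 2 with hashtags centred within cells, 1000 counts per cell or the ribosomal RNA genes left out, and were 1 to 3 with 1 hashtag left out, lowest without PFF + VH hashtag 1 or 3. In neutrophils 1 was higher, and 2 with RLE scaling, 0 with no filter or 1000 counts per cell and 0 to 2 with 1 hashtag left out, lowest without PFF + AZD1480 hashtag 5. The 1 lower there, Psmb10, became 2 genes with no filter or hashtags centred within cells, and 0 to 2 with 1 hashtag left out, lowest without PFF + AZD1480 hashtag 4.

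Among MG states, 9 hashtags and 2 libraries as blocks raised the genes called in the interferon state from 691 to 1072 and in the cycling state from 2456 to 4163 (3824 with 4 libraries). Immunoproteasome genes higher in the cycling state went from 1 to 2 with RLE scaling, DESeq2 or the added libraries, and to 3 with 4 libraries. For the tests of a difference between treatments, border macrophages went from 26 genes to 10 with DESeq2, T cells from 6 to 3 with RLE scaling, 2 with DESeq2 and 14 with no filter, the interferon state from 41 to 25 with RLE scaling, 93 with no filter and 63 with the stricter class rule, and the disease-associated state from 15 to 49 with no filter and 40 with DESeq2. The causes were not tested.

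Sums of the classes other than MG held 10 to 57 cells per hashtag. The stricter class rule gave too few sums to test T cells or NK cells, as did hashtags called by share for neutrophils and the 4 libraries for NK cells. Leaving out hashtags was not run for the differences between treatments.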
